A study of Mus musculus with 42 samples.

Results

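Cysteine in the middle of the CDR3 of the T-cell receptor beta chain was followed across 5 libraries of sorted mouse T cells. A clonotype, a distinct CDR3 nucleotide sequence within a library, was taken as a member if its translation held letters only, began with Cys, ended with Phe, was 8 to 20 residues long and kept a Cys once the first 4 and the last 4 residues were removed. The first of these conditions, without the Cys in the middle, define what is called a standard CDR3 here. Of 31576 clonotypes in the 5 tables, 26765 were standard CDR3s, and 52 of those were members, a share of 0.194% (95% exact interval 0.145 to 0.255%).

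The mice carried Foxn1-Cre, which acts in thymic epithelial cells, together with floxed NIK (NF-κB-inducing kinase). Mice labelled WT had 1 floxed and 1 intact NIK allele (Foxn1Cre x NIKfl/wt) and mice labelled KO had 2 floxed alleles (Foxn1Cre x NIKfl/fl), so every animal carried the Cre and the WT animals are heterozygous floxed controls. From spleen came a WT CD8 library (mouse 614), a KO CD8 library (mouse 617) and a KO CD4 library (mouse 597). Mouse 617 also gave a KO lung CD4 library, and mouse 618 a KO library of regulatory T cells (Tregs) from thymus. Conventional CD4 and CD8 cells were sorted as CD25- CD62L+, and Tregs as CD4+ with high CD25. No age is given in the labels. These 5 are of 42 listed samples, which form 14 groups over 6 mice; the remaining 37 were not analysed here. With 1 library per group no test of a condition was possible, so intervals cover counting error only and each comparison is one of libraries. Lineage, organ, genotype and mouse differ together among most of the libraries. The tables held 98655 to 205882 reads and 1609 to 16038 standard CDR3s per library. They held no transcripts of Cd4, Cd8a or Foxp3, and NIK was deleted outside T cells, so neither the sorted lineage nor the genotype could be checked against the data.

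The CDR3 is the loop where the V, D and J segments are joined, with bases trimmed and inserted at the joints, and it is the part of the beta chain that lies over the peptide held by an MHC molecule. Its first residue is a Cys that all V segments encode at the end of their framework, and its last is the Phe of the J segment. A second Cys at the apex of the loop is known in mice from receptors that react strongly with self ligands or bind without the usual MHC restriction. Such receptors are known to be removed by negative selection in the thymus or diverted into other lineages, among them CD8αα intraepithelial lymphocytes. NIK acts in the noncanonical NF-κB pathway on which medullary thymic epithelial cells, which display self antigens to developing T cells, depend.

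The 3 members with the most reads in each library are shown 5′ to 3′ from the first Cys codon to the Phe codon, because they carry the position and the surroundings of the residue in question. Capitals mark the codon of the middle Cys.
WT spleen CD8, TRBV13-2 and TRBJ2-7, 14 reads: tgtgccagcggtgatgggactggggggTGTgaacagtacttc
WT spleen CD8, TRBV16 and TRBJ2-7, 13 reads: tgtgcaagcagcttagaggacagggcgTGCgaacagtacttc
WT spleen CD8, TRBV12-2 and TRBJ2-7, 13 reads: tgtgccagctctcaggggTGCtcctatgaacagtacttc
KO spleen CD8, TRBV5 and TRBJ1-1, 10 reads: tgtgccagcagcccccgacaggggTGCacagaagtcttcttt
KO spleen CD8, TRBV12-2 and TRBJ2-1, 6 reads: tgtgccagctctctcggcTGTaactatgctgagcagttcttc
KO spleen CD8, TRBV5 and TRBJ1-1, 5 reads: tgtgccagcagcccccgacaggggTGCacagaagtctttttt
KO spleen CD4, TRBV19 and TRBJ2-4, 10 reads: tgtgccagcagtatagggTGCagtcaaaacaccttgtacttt
KO spleen CD4, TRBV13-1 and TRBJ2-3, 6 reads: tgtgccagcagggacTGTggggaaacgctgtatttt
KO spleen CD4, TRBV14 and TRBJ2-7, 1 read: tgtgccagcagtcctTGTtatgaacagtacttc
KO lung CD4, TRBV3 and TRBJ2-1, 11 reads: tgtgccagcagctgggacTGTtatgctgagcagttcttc
KO lung CD4, TRBV22 and TRBJ1-5, 3 reads: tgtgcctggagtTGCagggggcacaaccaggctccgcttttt
KO lung CD4, TRBV16 and TRBJ2-3, 1 read: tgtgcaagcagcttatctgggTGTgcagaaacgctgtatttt
KO thymus Treg, TRBV13-1 and TRBJ2-5, 101 reads: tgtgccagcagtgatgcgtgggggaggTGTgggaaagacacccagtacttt
KO thymus Treg, TRBV16 and TRBJ2-2, 56 reads: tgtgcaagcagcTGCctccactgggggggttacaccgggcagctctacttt
KO thymus Treg, TRBV19 and TRBJ2-3, 55 reads: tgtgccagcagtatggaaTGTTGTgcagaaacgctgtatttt
The last of these carries a pair of adjacent Cys codons, and the 52 members therefore hold 53 middle Cys residues. The 2 TRBV5 sequences of KO spleen CD8 differ by 1 base near the Phe codon and encode the same residues. The bases of 0 of the 52 members occurred in another of the 5 libraries (exact upper bound 6.85%). Of the other standard CDR3s 10.9% did so, from 6.48% in WT spleen CD8 to 25.3% in KO spleen CD8, and of those with a single read 5.40%.

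Middle Cys was most frequent among the clonotypes of KO spleen CD8 and lay at about 0.2% or below in the other 4 libraries. In WT spleen CD8, 25 of 16038 standard CDR3s were members (0.156%, interval 0.101 to 0.230%). In KO spleen CD8 they were 12 of 2505 (0.479%, 0.248 to 0.835%). In KO spleen CD4 they were 3 of 1609 (0.186%, 0.0385 to 0.544%), and in KO lung CD4 5 of 3119 (0.160%, 0.0521 to 0.374%). Thymic Tregs had 7 of 3494 (0.200%, 0.0806 to 0.412%). Only the intervals of the 2 spleen CD8 libraries stood apart from one another, and those of KO spleen CD8 and the 3 other KO libraries overlapped. Counted per residue, so that loop length does not enter, there were 2.91 Cys per 10000 middle residues in WT spleen CD8, 9.13 in KO spleen CD8, 3.66 in KO spleen CD4, 3.12 in KO lung CD4 and 4.10 in Tregs, which keeps the same library at the top.

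**Figure D1:**
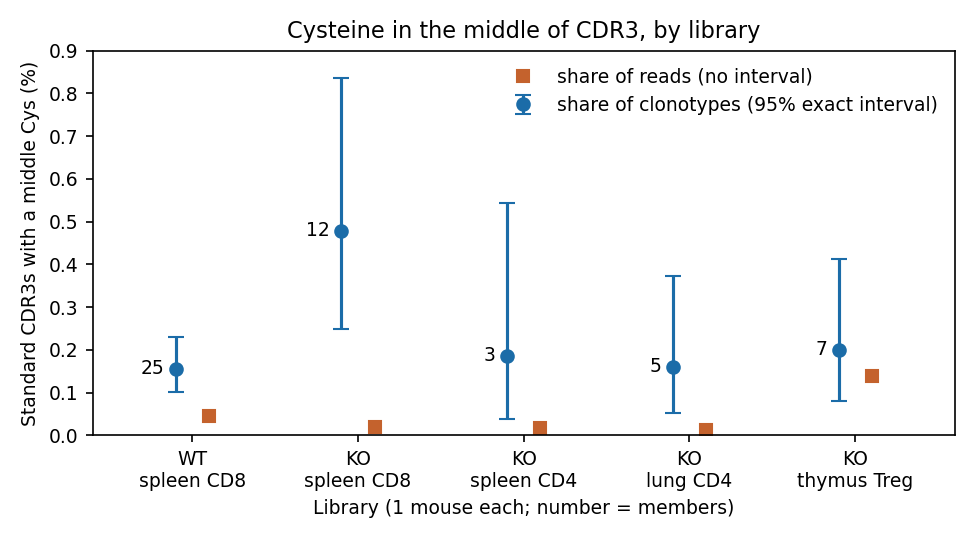
Members as a share of the standard CDR3s in each library (circles, percent of clonotypes, with exact 95% intervals for counting error) and as a share of their reads (squares, percent of reads). KO spleen CD8 has the highest share of clonotypes, 0.479%, and Tregs the highest share of reads, 0.138%.

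The comparison of genotypes that these libraries allow is the one of spleen CD8 cells. The share of clonotypes with a middle Cys was 3.07 times as high in the KO as in the WT library (exact interval 1.41 to 6.35), with 1 mouse on each side, so genotype and mouse cannot be told apart. The direction turned when clonotypes were weighted by their reads. Members held 0.0200% of standard-CDR3 reads in KO spleen CD8 and 0.0462% in WT spleen CD8, a ratio of 0.433. All standard CDR3s had 190077 reads on 2505 clonotypes in KO spleen CD8, and 151445 reads on 16038 clonotypes in WT spleen CD8. The largest clonotype that was no member had 14668 reads in the KO and 1028 in the WT library. The part of such large clonotypes in the turn was not tested. Within KO mouse 617, the spleen CD8 share was 2.99 times that of lung CD4 (0.980 to 10.8), and against spleen CD4 cells of KO mouse 597 it was 2.57 times as high (0.693 to 14.2). Both intervals hold 1. Lung against spleen CD4 cells gave 0.860 (0.167 to 5.54), and Tregs against spleen CD4 cells 1.07 (0.245 to 6.44). Weighted by reads, the last of these ratios was 7.65, beyond its interval. With 3 members in spleen CD4, differences of several-fold in either direction were not detectable there.

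Pooled by lineage, the 2 CD8 libraries held 37 members in 18543 standard CDR3s (0.200%, 0.141 to 0.275%) and the 2 conventional CD4 libraries 8 in 4728 (0.169%, 0.0731 to 0.333%), beside the 0.200% of Tregs. Pooled by organ, the 3 spleen libraries came to 0.198% (0.142 to 0.270%), beside 0.160% in lung and 0.200% in thymus. The 4 KO libraries together had 27 members in 10727 (0.252%, 0.166 to 0.366%), and without spleen CD8 15 in 8222 (0.182%, 0.102 to 0.301%). The intervals of these pools overlapped within each grouping, and they leave out the difference between the libraries joined. WT spleen CD8 gave 16038 of the 18543 standard CDR3s of the CD8 pool, while the CD4 and Treg libraries are all KO. Lineage and organ therefore cannot be told apart from genotype and mouse in these pools.

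Most members were rare sequences. Outside the Treg library, the 45 members had 1 to 14 reads each with a median of 1, whereas the 7 Treg members had 101, 56, 55, 26, 25, 1 and 1. In WT spleen CD8, 17 of 25 members rested on a single read and the median was 1, against a median of 7 for the other standard CDR3s. In KO spleen CD8 the members with more than 1 read had 10, 6, 5, 5, 3 and 3, the remaining 6 had 1, and the others' median was 8. The 3 members of KO spleen CD4 had 10, 6 and 1 against a median of 28. The 5 of KO lung CD4 had 11, 3, 1, 1 and 1 against a median of 11. Over all libraries 29 of 52 members had a single read (55.8%, 41.3 to 69.5%), against 14.1% of the other standard CDR3s. In Tregs the members' median was 26 and that of the other clonotypes 34, and 3 of the 7 members lay above it. Reads in these bulk libraries reflect both the number of cells and the receptor RNA in each cell, which cannot be told apart.

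**Figure D2:**
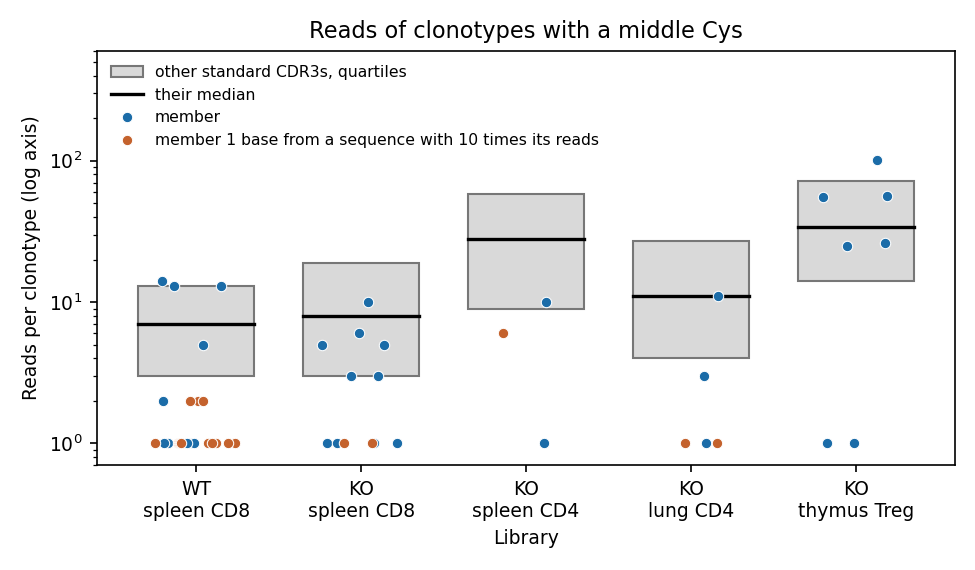
Reads per member (points, log axis) by library, over the quartiles (grey boxes) and median (black line) of the other standard CDR3s. Orange points are members 1 base away from a clonotype with at least 10 times their reads; there are 19 of them, 14 in WT spleen CD8 and 0 in Tregs.

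Many members lay close to a larger sequence. Of the 52 members, 19 (36.5%) lay 1 substitution away from a clonotype of their own library with at least 10 times as many reads, against 6.32% of the other standard CDR3s. This measure depends on the reads, since a clonotype with few reads more easily has a neighbour with 10 times as many, and members had fewer reads. They were 14 of 25 in WT spleen CD8, 2 of 12 in KO spleen CD8, 1 of 3 in KO spleen CD4, 2 of 5 in KO lung CD4 and 0 of 7 in Tregs. Among single-read clonotypes alone, 11 of 17 members of WT spleen CD8 were in this position (64.7%, 38.3 to 85.8%), against 36.9% of the others. The same counts were 2 of 6 against 25.9% in KO spleen CD8 and 2 of 3 against 34.1% in KO lung CD4. In KO spleen CD4 they were 0 of 1 against 37.8%, and in Tregs 0 of 2 against 42.9%. With 1 to 6 single-read members in each of these libraries, such counts show no direction. In place of the middle Cys the larger sequence encoded Tyr in 7 of the 19, Arg in 6, and Phe, Ser and Trp in 2 each. The part of PCR or sequencing errors in these 19 was not tested. Without clonotypes of this kind, WT spleen CD8 held 11 members in 14963 standard CDR3s (0.0735%), and the KO to WT ratio of spleen CD8 was 5.76 (2.19 to 14.9).

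The middle Cys lay at positions 5 to 11, counted from the first Cys as 1, with 10 residues at position 7, 10 at position 8 and 12 at position 9. It was within 2 residues of the loop's centre in 47 of 53 cases (88.7%, 77.0 to 95.7%), where 80.3% of all middle residues lie. Counted back from the last Phe as 1, position 7 was the most frequent, with 16 of 53. At the limits of the definition, 5 members had their Cys at position 5 from the start, while 9 standard CDR3s with a Cys at position 4 were left out. Position 3 held a Cys in 1596 standard CDR3s that were no members, 1580 of them with TRBV1, whose germline end encodes it. Loop length was 13.8 ± 1.58 residues (SD, n = 52) in members and 13.3 ± 1.43 in the others, a measure that is tied to the definition because a longer loop has more middle residues.

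**Figure D3:**
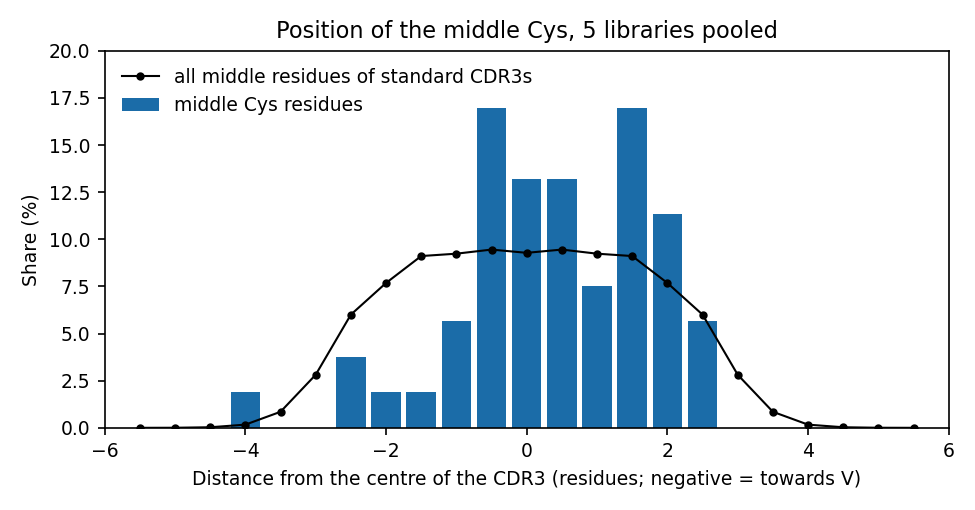
Distance of the 53 middle Cys residues from the centre of their CDR3 (bars, percent of Cys residues) and of all 142701 middle residues of standard CDR3s (line, percent), in residues, negative towards the V segment. The Cys residues sit mostly from 1 residue before to 2.5 after the centre.

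Gly was the residue before the middle Cys in 28 of 53 cases (52.8%, 38.6 to 66.7%), and Gly made up 24.3% of all middle residues. Among codons holding at least 1 base between V and J in standard CDR3s, Gly made up 37.9%, just below that interval. Asp preceded the middle Cys in 5 cases and Ser in 4. After the Cys the residues were spread, with Glu in 8, Gly and Tyr in 7 each and Ala in 6. Both codons were in use, TGC for 30 and TGT for 23 residues. The codon held at least 1 base between the listed V end and J start, either inserted or from D, in 43 of 53 cases (81.1%). In 26 cases it held a base listed as J and in 6 a base listed as V. It lay wholly in listed J bases in 8 cases and wholly in listed V bases in 2, so that few middle Cys residues were listed as coming whole from the ends of a V or J segment. The sequences above show the common arrangement in the WT TRBV13-2 member, where a run of G bases, which both D segments are rich in, is followed by the Cys codon and the start of J.

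J segments of the second cluster carried 46 of 52 members (88.5%, 76.6 to 95.6%), against 68.2% of the other standard CDR3s. TRBJ2-7, the last J of the locus (chr6:41543810-41543856, GRCm38), was joined in 20 members (38.5%, 25.3 to 53.0%) against 21.6% of the others. TRBJ2-1, the first of the cluster (chr6:41542754-41542803), was joined in 13 (25%, 14.0 to 38.9%) against 12.9%. Together they made up 20 of 25 members in WT spleen CD8, 8 of 12 in KO spleen CD8, 1 of 3 in KO spleen CD4, 3 of 5 in KO lung CD4 and 1 of 7 in Tregs. Shares of the others for the pair together were not computed by library. Taken singly, both segments exceeded the others' share in WT spleen CD8. There TRBJ2-7 had an interval of 27.8 to 68.7% against 22.9%, and TRBJ2-1 one of 14.9 to 53.5% against 14.2%. In each KO library the wide intervals of both segments held the others' share. TRBJ2-3 and TRBJ2-4 carried 4 members each, close to their general shares of 7.16% and 9.50%. The first J cluster carried 6 members. The J shares of the pool follow mostly the 2 CD8 libraries, since these hold 37 of its 52 members. A bare majority of the 20 TRBJ2-7 members were among the 19 members 1 base from a clonotype with at least 10 times their reads. Fewer of the 13 TRBJ2-1 members were. J shares without those 19 were not computed, so whether the higher share of either segment stays without them is not known.

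**Figure D4:**
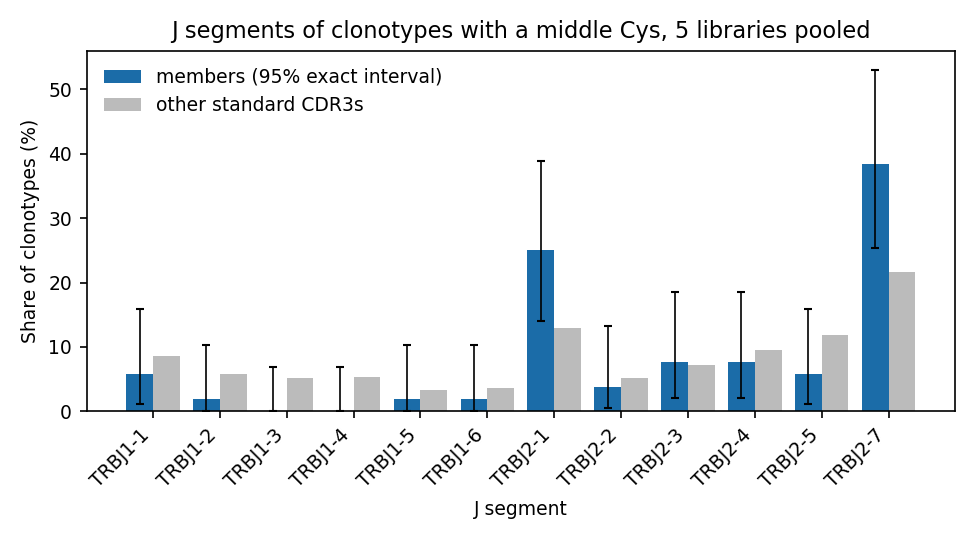
Share of clonotypes with each J segment (percent), for the 52 members (blue bars, exact 95% intervals for counting error) and the other standard CDR3s (grey bars). Of the 12 segments, TRBJ2-1 and TRBJ2-7 have intervals that lie above the grey bar.

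Members used 17 of the 25 V segments found in standard CDR3s. TRBV12-2 (chr6:41118864-41119364) carried 8 of them (15.4%, 6.88 to 28.1%) against 8.13% of the others, 5 in KO spleen CD8, 3 in WT spleen CD8 and 0 in the CD4 and Treg libraries. In KO spleen CD8 these were 5 of 12 (41.7%, 15.2 to 72.3%), where 10.2% of the other standard CDR3s used this segment. However, 2 of the 5 were 1 base apart from one another. Another of the 5, with 1 read, lay 1 base from a clonotype with 25 reads. The interval counts all 5 as separate. TRBV16 (chr6:41151791-41152230) carried 7 (13.5%, 5.59 to 25.8%) against 9.18% of the others, spread over 4 libraries, 4 of them in WT spleen CD8. TRBV13-1, TRBV14, TRBV19 and TRBV5 carried 4 each. TRBV1 carried 3, all in WT spleen CD8. TRBV22, named here after its values were seen and listed as a pseudogene in RefSeq, was the V listed for 3 members in KO lung CD4 and Tregs. That is 5.77% (1.21 to 15.9%) against 2.04% of the others. The listed V names were not checked against germline sequences. V segments favoured by NKT cells (TRBV13-2, TRBV29, TRBV1) were used by 7 members (13.5%, 5.59 to 25.8%) against 19.2% of the others. Of these 7, 6 were in WT spleen CD8. Those favoured by MAIT cells (TRBV19, TRBV13-2, TRBV13-3) were used by 8 (15.4%, 6.88 to 28.1%) against 23.3%. Both intervals hold the others' share, so no difference was detectable.

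More bases had been inserted in members than was usual. Where a D segment was listed, members held a median of 2 inserted bases (mean 2.67 ± 2.52, SD, n = 33) and the others a median of 0 (1.23 ± 1.78, n = 18426). In that class 7 of 33 members and 9265 of 18426 others had no inserted base. The 4 Treg members with a listed D had 4 to 11 inserted bases with a median of 6.5, against a median of 2 in the other Treg clonotypes. The 3 Treg members without one had a median of 3 against 4, the other way. The 9 of KO spleen CD8 had a median of 2 against 0, and so had the 15 of WT spleen CD8. Without a listed D, as in 19 members (36.5%, against 31.0% of the others), all bases between V and J count as inserted, and the medians were 4 and 3. The Cys codon itself mostly holds inserted bases, so this measure is not independent of how the members were chosen.

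Cys was the rarest of the 20 residues in the middle of standard CDR3s, at 53 of 142701 (0.0371%). Lys, at 0.258%, and Met, at 0.268%, came next. Out-of-frame rearrangements give the comparison for a receptor loop that makes no protein: a cell can keep one beside a working beta chain. Among codons holding at least 1 base between V and J, read in the frame of V, Cys made up 52 of 82821 in standard CDR3s (0.0628%, 0.0469 to 0.0823%) and 6 of 7871 in 2229 out-of-frame rearrangements (0.0762%, 0.0280 to 0.166%), a ratio of 0.824 (0.354 to 2.35). Cys was the rarest residue in both. The counts by library were small: 21 of 50188 against 3 of 3671 in WT spleen CD8 (ratio 0.512, 0.153 to 2.68), 5 of 8978 against 1 of 989 in KO lung CD4 (0.551, 0.0616 to 26.1), and 9 of 11759 against 2 of 1723 in Tregs (0.659, 0.136 to 6.27). KO spleen CD8 had 12 of 7450 in standard CDR3s and 0 of 917 out of frame, a 0 that allows up to 0.327%, above the 0.161% of its standard CDR3s. KO spleen CD4 had 5 of 4446 and 0 of 571, which allows up to 0.525%. A lower or higher rate of Cys in productive than in out-of-frame junctions was not detectable at this depth in any library.

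**Figure D5:**
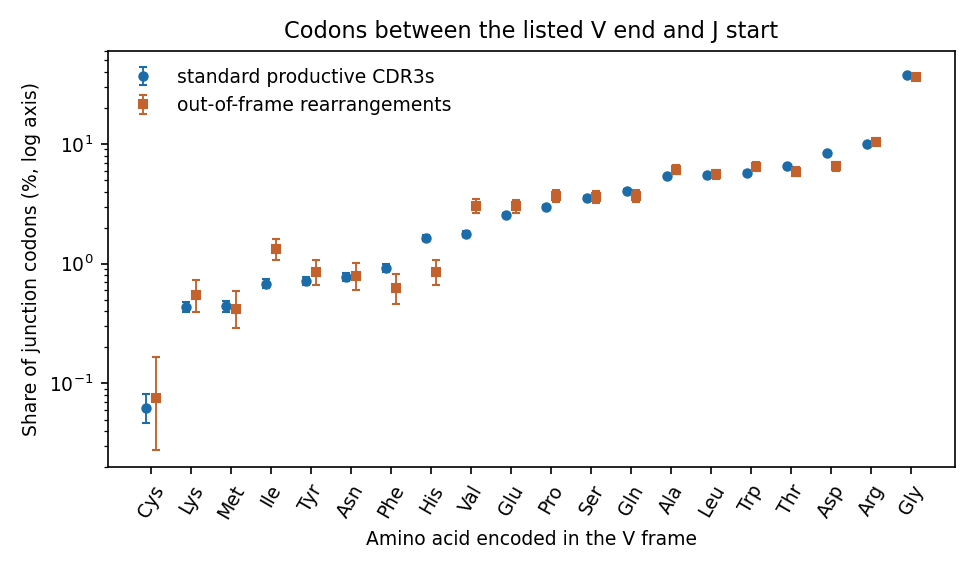
Share of each amino acid among codons between V and J (percent, log axis, exact 95% intervals for counting error), in standard CDR3s (circles) and in out-of-frame rearrangements read in the V frame (squares), 5 libraries pooled. Cys is the rarest in both classes, at 0.0628% and 0.0762%, and its intervals overlap.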

How the data were processed

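Per the labels' protocols, cells were sorted into RNA lysis buffer and their T-cell receptor transcripts made into libraries with the SMARTer Mouse TCR a/b Profiling Kit. Each deposited table gives, per the file headers, a read count for every CDR3 nucleotide sequence, whole numbers with no normalization. The deposited fraction is that count over the total of the authors' table. Positions of segment ends are other deposited values, in bases from 0, per the file headers and values. The submitters' processing notes name the build mm10. Which aligner, clonotype caller, error correction and read filters were applied is not given in the sources used here. No molecular identifiers are stated and reads are PCR copies, so shares were counted per clonotype, and intervals and limits cover counting error only.

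Shares carry exact Clopper-Pearson 95% intervals and ratios of shares exact conditional 95% intervals. A count of 0 was taken to allow up to 3 counts. Out-of-frame rearrangements were 24 to 60 bases long. Comparisons were the 5 ratios between libraries and, in each library, standard against out-of-frame junction codons. Members were otherwise set beside the other standard CDR3s with no test, since libraries had no replicates. Segments with at least 4 members, and TRBV1, were named, and the 3 members with the most reads per library printed, with any pair encoding the same residues. All 37 segment names of standard CDR3s were matched to RefSeq symbols and coordinates of GRCm38.p6. Members, lists and tests were chosen with earlier results of these data known. The alternatives were a minimum of 2 reads, amino acid clonotypes, read weights, removal of sequences 1 base from one with 10 times the reads, removal of 5 residues at each end, equal depth (94357 reads, by expectation) and Cys codons in the junction only; for junction codons, also those wholly between V and J, and the addition of in-frame rearrangements with a stop. Functions were tested on simulated data. Python 3.11.15, pandas 2.3.3, numpy 2.4.6, scipy 1.17.1 and matplotlib 3.10.9 were used.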

Additional observations from a re-analysis of the deposited data

How the results depend on the processing

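Of 85 values recomputed under the alternatives listed above, 77 stayed within the counting interval of the value reported. Many of these intervals are wide, such as 0.0616 to 26.1 for the junction codon ratio of KO lung CD4. The alternatives also draw on the same members, so staying within an interval is a weak check. Weighting by reads turned the KO to WT ratio of spleen CD8 to 0.433 and moved that of Tregs to spleen CD4 to 7.65. It gave shares of 0.0462% in WT spleen CD8, 0.0200% in KO spleen CD8, 0.0180% in KO spleen CD4 and 0.0130% in KO lung CD4. A minimum of 2 reads lowered WT spleen CD8 to 0.0586%, and removing sequences 1 base from one with 10 times the reads lowered it to 0.0735%. Removing those 1 base from any larger sequence, an alternative chosen after seeing the data, gave 0.0422% in WT spleen CD8, 0.0377% in KO lung CD4 and a KO to WT ratio of 8.77 (2.53 to 34.1). The cause was not tested. The KO to WT ratio of spleen CD8 was 2.69 to 8.77 in the 6 alternatives that have an interval, and all 6 intervals lay above 1. For KO spleen CD8 against KO lung CD4, 3 alternatives gave intervals above 1. The junction codon ratio has no finite value in KO spleen CD8 and KO spleen CD4, where no out-of-frame Cys codon was seen. No paired analysis was possible because each group had 1 library. The small numbers of members, 3 to 7 in 3 of the libraries, limit what can be told from them.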

Other observations

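TGT and TGC were rare between V and J in all 3 reading frames, counts chosen after seeing the data. Triplets lying wholly between V and J were TGT or TGC in 29 of 50435 cases in the V frame of standard CDR3s (0.0575%, 0.0385 to 0.0826%). Shifted by 1 base they were so in 36 of 48864 (0.0737%, 0.0516 to 0.102%), and shifted by 2 bases in 39 of 51502 (0.0757%, 0.0539 to 0.104%). The 3 intervals overlap. T made up 7.56% of these bases and G 59.5%. In out-of-frame rearrangements such triplets were 3 of 5071 in the V frame (0.0592%, 0.0122 to 0.173%). Shifted by 1 base they were 1 of 5048 (0.0198%, 0.0005 to 0.110%). Shifted by 2 bases they were 9 of 4976 (0.181%, 0.0827 to 0.343%), the highest of these rates. Its cause was not tested.

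Among rows too short to be standard CDR3s, under 24 bases, 21 began with a Cys codon, with 5737 reads in all. The sequences found in at least 3 libraries are shown, with that codon in capitals.
TRBJ2-1, in all 5 libraries, 637 to 1246 reads in each: TGCtgagcagttcttc
TRBJ2-7, in all 5 libraries, 63 to 283 reads in each: TGTgctcctatgaacagtacttc
TRBJ2-1, in 3 libraries, 8 to 12 reads in each: TGTgctgagcagttcttc
At most 2, 6 and 14 of their bases were listed as V. The first 2 of these sequences are out of frame, the third is in frame, and the J segments are those that members joined most. All bases of the first also end the printed TRBJ2-1 members of KO spleen CD8 and KO lung CD4. There its TGC lies across 2 codons of the listed J end and encodes no Cys. All bases of the third also end TRBJ2-1 members of WT spleen CD8 with TRBV3, TRBV16 and TRBV5, not printed above. There its TGT is the codon of the middle Cys. Whether any of these short sequences come from a CDR3 with a second Cys codon was not tested.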
